A study of Homo sapiens with 12 samples.

Results

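Transcript levels of the nuclear genes that encode subunits of respiratory chain complexes I to IV were measured on 12 arrays of FG and L3.6pl, established lines of human pancreatic cancer that the title of the series sets apart by metastatic potential. The list held 49 genes, with 30 in complex I (the NDUF genes), 4 in complex II (SDH), 7 in complex III (UQCR and CYC1) and 8 in complex IV (COX). Members were found by current gene symbol among the probe sets that give exactly 1 gene, and a gene with several such probe sets was represented by the one with the highest mean over the 12 arrays. This gave 43 measured members among 19775 genes: 27 of complex I, 3 of complex II, 5 of complex III and 8 of complex IV. NDUFC2, NDUFS5, NDUFS8, SDHB, UQCRFS1 and UQCRH had no such probe set and have no value here. The 4 groups of 3 arrays each were FG in normoxia, FG in hypoxia, L3.6pl in normoxia and L3.6pl in hypoxia. Every culture grew from frozen stock in DMEM with 10% serum, typically for 9 days, and the hypoxic ones had their last 24 h at 1% oxygen while the normoxic ones were left untreated. Each line is a single established line, and no label states that a group's 3 arrays had cultures of their own, so p values measure the spread between these arrays, which may be technical. RNA of whole cultures was measured, so fewer cells of a kind and less RNA per cell cannot be told apart. Levels are log2 RMA intensities, and changes are log2 differences ± standard error from 1 limma model of all 12 arrays, with p values adjusted over all genes and called below 0.05. The comparisons between lines use the same groups as the comparisons between oxygen conditions, so they share arrays.

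The respiratory chain passes electrons from nutrients to oxygen. Complex I takes them from NADH and complex II from succinate, and both hand them to ubiquinone; complex III passes them on to cytochrome c, and complex IV uses them to reduce oxygen to water. Complexes I, III and IV pump protons as they do so, and the resulting gradient drives ATP synthase. A few core subunits of complexes I, III and IV are encoded in mitochondrial DNA, and the nuclear genes described here supply the rest. In low oxygen, cells are known to restrain this pathway through the hypoxia-inducible factors, for instance by exchanging subunit isoforms and by holding pyruvate out of the citric acid cycle.

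Promoter windows from RefSeq (GRCh38.p14) were found for 41 of the 49 listed genes, each from 250 bases before to 50 bases after the start of the gene. NDUFB5, NDUFB9, NDUFC2, NDUFS5, SDHC, UQCRB, CYC1 and COX6C had no window, so their promoters were not searched and none is printed. Motifs of factors known to act on nuclear respiratory genes were searched on both strands: GCGCANGCG for NRF1, AANATGGCG for YY1 and CCGGAAGT for GABPA and other ETS factors, beside the core ACGTG of the hypoxia-inducible factors. The NRF1 letters stood in 11 of 41 member windows (26.8%) against 12.5% of 15842 coding genes with a window. For YY1 the count was 15 (36.6%) against 5.59%, for ETS factors 7 (17.1%) against 6.97%, and for the hypoxia core 9 (22.0%) against 28.5%. A match is a description of the letters and not a binding site. For 3 genes the 200 bases before the start are given on the gene's own strand: SDHA, the subunit called in FG, SDHD, the subunit with the smallest p for a difference in hypoxia change between the lines, and NDUFS6, the complex I subunit with the largest hypoxia change. Capitals mark NRF1 matches in all 3 and, in SDHD, also the ETS match.
SDHA (chr5:218120-218319, plus strand): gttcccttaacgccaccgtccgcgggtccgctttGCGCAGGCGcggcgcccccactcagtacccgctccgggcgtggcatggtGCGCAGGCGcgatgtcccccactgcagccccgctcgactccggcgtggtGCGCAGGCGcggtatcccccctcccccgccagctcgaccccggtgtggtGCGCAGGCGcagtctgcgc
SDHD (chr11:112086673-112086872, plus strand): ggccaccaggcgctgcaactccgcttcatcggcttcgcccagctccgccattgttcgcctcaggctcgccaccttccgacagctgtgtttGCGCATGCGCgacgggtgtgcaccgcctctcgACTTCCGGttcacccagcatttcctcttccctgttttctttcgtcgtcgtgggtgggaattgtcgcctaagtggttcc
NDUFS6 (chr5:1801207-1801406, plus strand): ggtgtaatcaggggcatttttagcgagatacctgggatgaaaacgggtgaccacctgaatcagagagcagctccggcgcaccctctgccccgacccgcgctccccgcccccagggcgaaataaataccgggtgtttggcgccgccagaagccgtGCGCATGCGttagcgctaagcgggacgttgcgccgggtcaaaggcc
The SDHA window holds 4 copies of the NRF1 letters, each 49 bases after the one before it, with the last starting 19 bases before the gene. In SDHD the letters read on both strands as overlapping matches, and the ETS letters lie on the other strand. NDUFS6 has 1 NRF1 match, starting 46 bases before the gene.

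Some arrays stood apart across the whole set of subunits, whatever their complex. Replicate 1 of each normoxia group was the lowest of its 3 arrays in 39 of 43 members, against 41.6% of all genes in FG and 42.5% in L3.6pl. Normoxia replicate 3 was the highest in 42 members in FG (41.5% of all genes) and in 40 in L3.6pl (42.2% of all genes). Among hypoxic arrays, L3.6pl replicate 2 was the lowest in 42 members (42.5% of all genes) and FG replicate 2 in 33 (36.1% of all genes). The difference between the 3′ and 5′ control probe sets of ACTB, a sign of RNA quality, was 1.14 in FG normoxia 1, 0.874 in L3.6pl normoxia 1 and 1.34 in L3.6pl hypoxia 3, and 0.34 to 0.714 elsewhere. The mean of 12 proliferation genes was 8.51 in FG normoxia 1 against 10.5 and 10.6 in replicates 2 and 3, and 9.87 in L3.6pl normoxia 1 against 10.7 in each of the others. In hypoxia that mean ran from 9.07 to 10.0. The part of these differences in the results was not tested. Markers of the epithelial class (KRT8, KRT18, KRT19, EPCAM, CDH1) lay between 9.09 and 13.6 on every array, those of blood and endothelium at 8.52 or lower, and those of acinar and endocrine pancreas at 5.52 or lower. Of 5 stromal markers, DCN did not pass 5.38, while COL1A1 reached 11.4 and COL3A1 reached 11.9. Hypoxia was visible in both lines: all 12 of 12 known hypoxia-induced genes listed as a check rose in each.

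**Figure D1:**
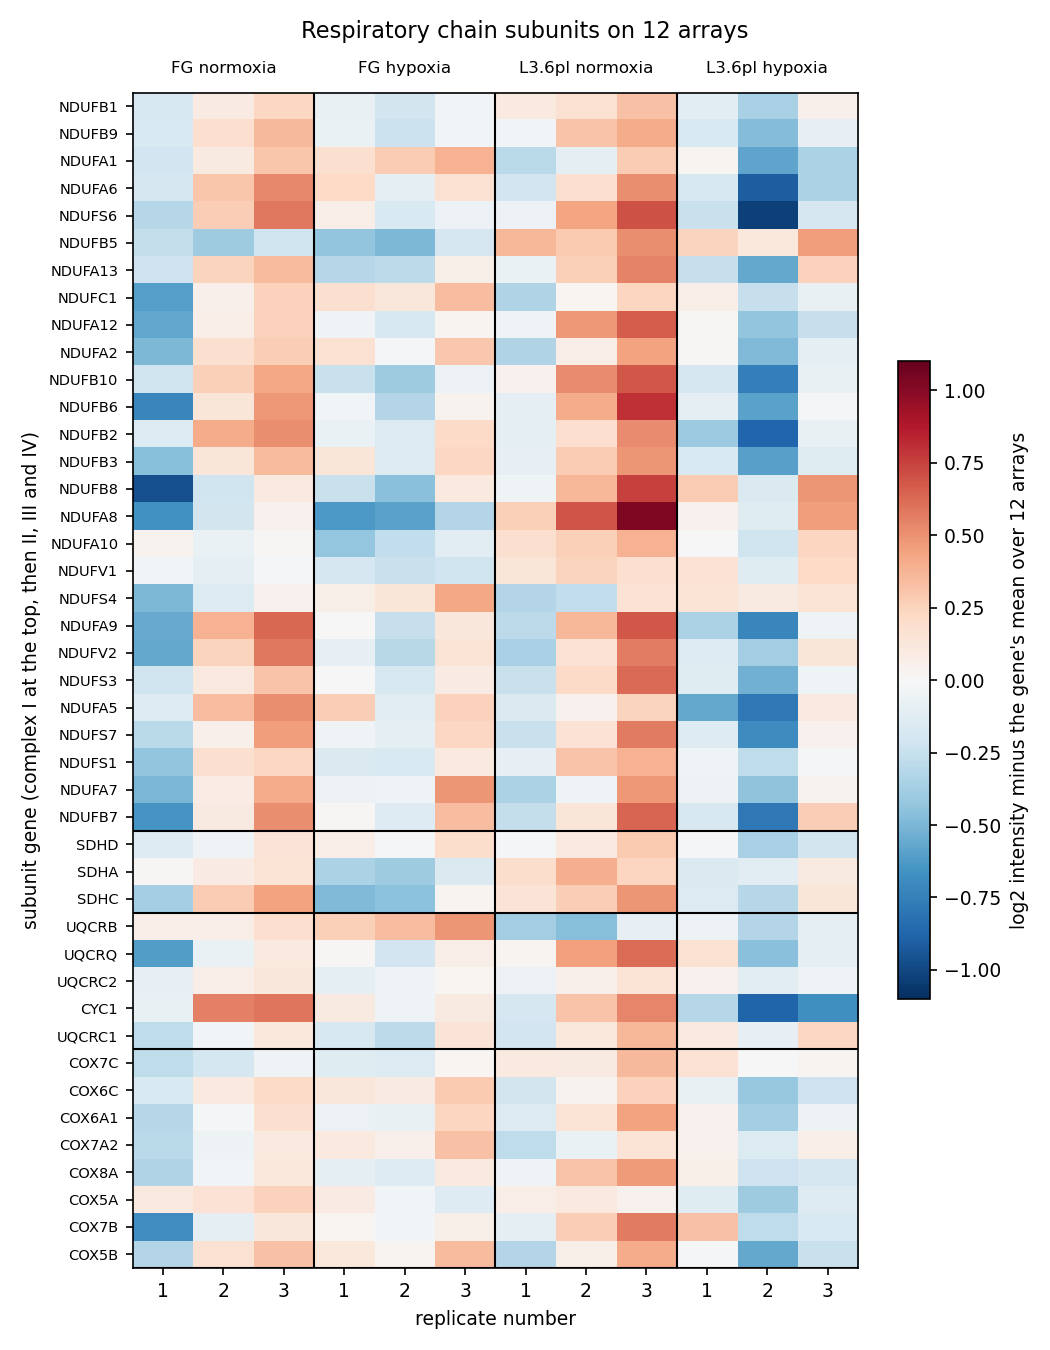
Level of each of the 43 measured subunit genes on the 12 arrays, as log2 intensity minus the gene's mean over all arrays (colour scale), with replicate numbers on the horizontal axis and genes on the vertical axis, complex I at the top. Normoxia replicate 1 of each line is a mostly blue column, normoxia replicate 3 a mostly red one, and L3.6pl hypoxia replicate 2 is the lowest of its group in 42 genes (42.5% of all genes).

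The first comparison asked how subunit transcripts differed in FG cells after hypoxia. With 1 probe set standing for each gene, SDHA alone fell, by 0.38 on the log2 scale, and no member rose. Thus 1 of 43 was called where 10.7% of all genes were (4.24% higher and 6.47% lower). The median change of the members was -0.06, beside -0.03 over all genes, and 24 of 43 changes were negative. By complex the median was -0.09 in complex I, -0.38 in complex II, -0.04 in complex III and 0.10 in complex IV. The 3 hypoxic arrays lay wholly above the normoxic ones in 2 members (10.9% of all genes) and wholly below in 4 (17.1% of all genes). Without normoxia replicate 1 of both lines, the median became -0.22 and 1 member was called against 11.6% of all genes, but it was SDHC rather than SDHA. Leaving out FG hypoxia replicate 2 or FG normoxia replicate 3 turned the median to 0.02 and 0.08. The choice of probe set mattered for NDUFA10. Its 5 probe sets had FG changes from -0.47 to 2.98, 3 of them with the sign of the one used, and 1 was called singly. When probe sets were averaged within genes, NDUFA10 was called higher in FG, and SDHA, SDHC and COX7B were called lower.

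In L3.6pl the same comparison gave a lower value for nearly every subunit, while a single gene passed the test. CYC1, which encodes cytochrome c1, fell by 0.85, so 1 of 43 members was called against 6.86% of all genes (3.89% higher and 2.97% lower). The change was negative in 40 of 43 members, with a median of -0.33 beside -0.02 over all genes. An unadjusted p below 0.05 was found in 15 members, all with negative changes, where 21.3% of all genes had one and 11.6% had one with a negative change. The median was -0.42 in complex I, -0.34 in complex II, -0.09 in complex III and -0.28 in complex IV. Hypoxic arrays lay wholly below normoxic ones in 10 members (12.8% of all genes) and wholly above in 0 (11.5% of all genes). With each probe set tested singly, 1 each of NDUFA6, NDUFS1 and COX7B was called lower in L3.6pl, and that of CYC1 was not called. The share of all probe sets called singly is not given here.

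Leaving out normoxia replicate 1 of both lines raised the L3.6pl count to 15 of 43 members, all lower, against 10.9% of all genes called and 5.65% called lower. These were 12 of 27 in complex I (NDUFA6, NDUFA8, NDUFA9, NDUFA12, NDUFB2, NDUFB3, NDUFB6, NDUFB9, NDUFB10, NDUFS1, NDUFS3 and NDUFS6), UQCRQ and CYC1 in complex III, and COX8A in complex IV. The median was then -0.46 and 41 of 43 changes were negative. Of the 12 proliferation genes, 8 were called lower in the same setting, with a median of -1.25, against 2 and a median of -0.85 with all arrays, and their part in the subunit count was not tested. Leaving out L3.6pl hypoxia replicate 3 as well gave 23 members, all lower, against 21.1% of all genes, 13.2% of them lower. With all arrays kept but weighted by quality, 22 members were called lower against 26.3% of all genes, 15.7% lower. The median stayed negative in L3.6pl without any single array, between -0.46 and -0.21.

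**Figure D2:**
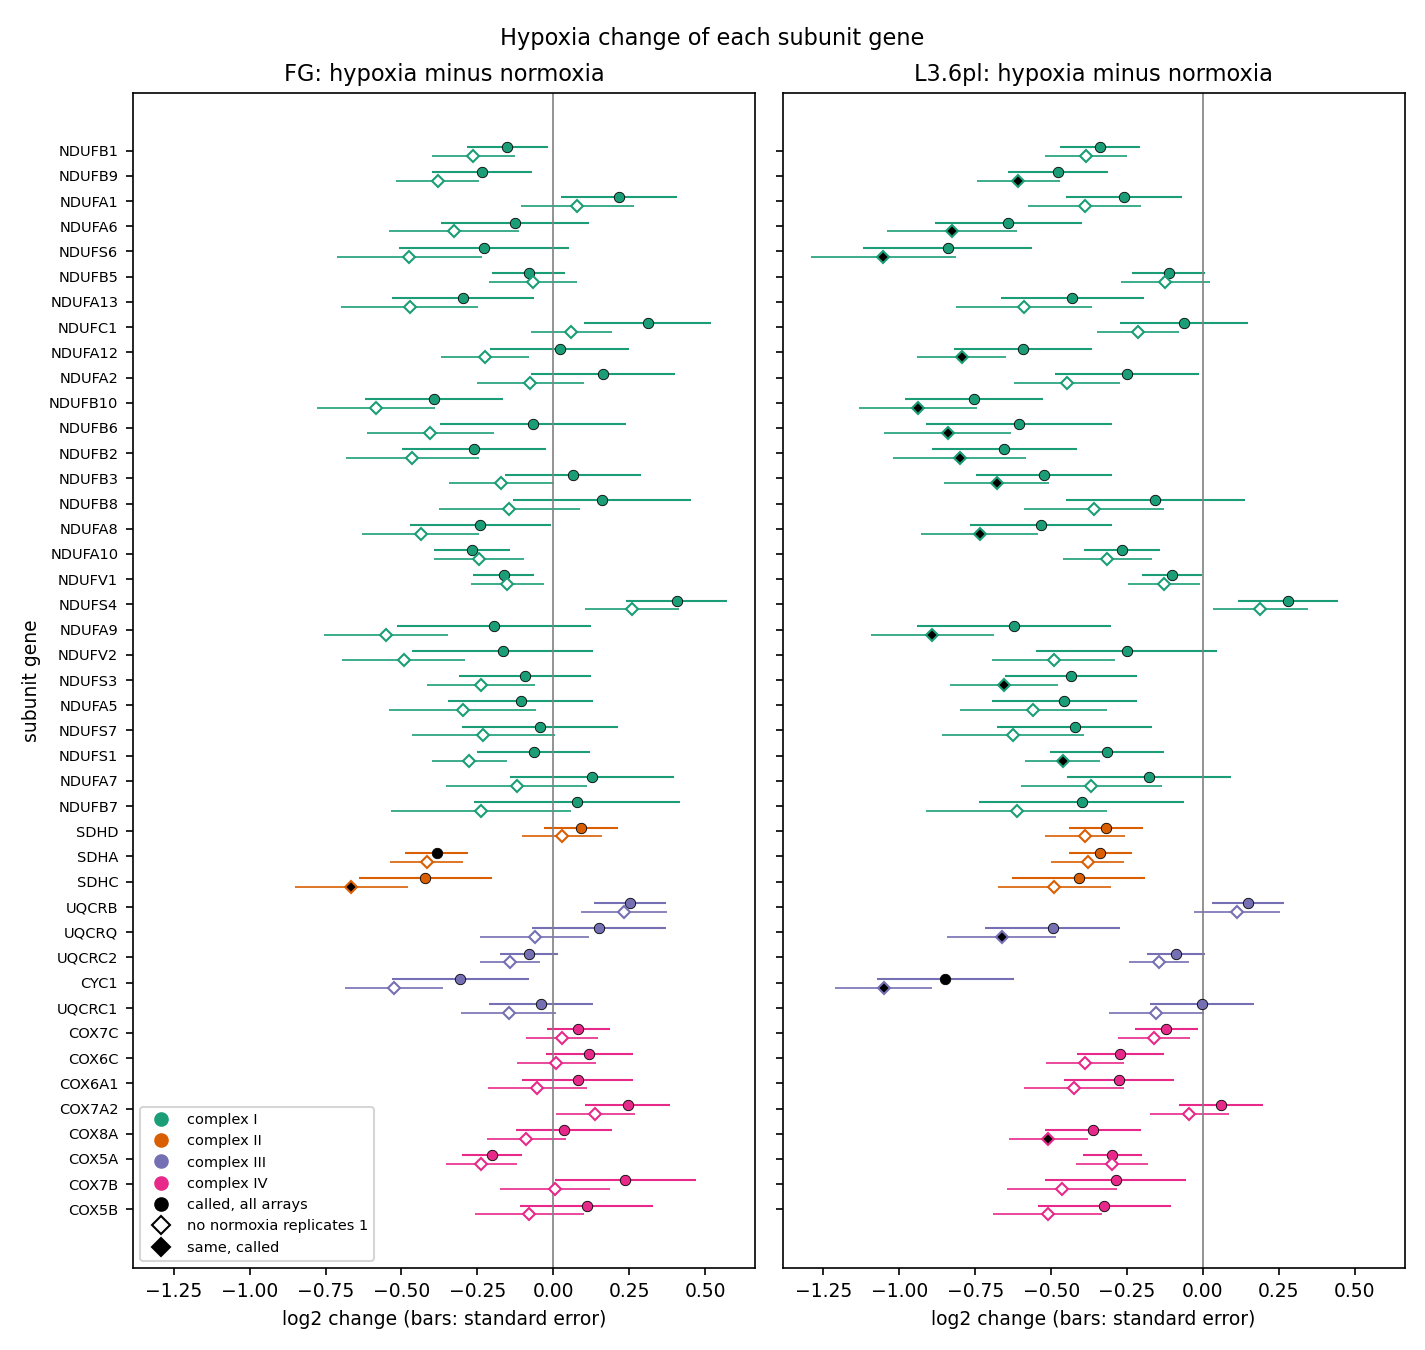
Hypoxia minus normoxia in FG (left) and L3.6pl (right) for each subunit gene, as log2 change on the horizontal axis with bars of 1 standard error; circles use all arrays and diamonds leave out normoxia replicate 1 of both lines. Circles spread on both sides of 0 in FG and lie left of 0 for 40 of 43 genes in L3.6pl, where 15 diamonds are filled black because they passed the test.

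Complex I enters the chain through its peripheral arm, which oxidises NADH. NDUFS6, an accessory subunit of that arm, had the largest hypoxia change of the complex. Its level in L3.6pl was 11.94, 12.44 and 12.70 on normoxia replicates 1 to 3 and 11.76, 10.98 and 11.82 in hypoxia. Every hypoxic array was below every normoxic one, and the change was -0.84 ± 0.28 (adjusted p = 0.105, limma). In FG its normoxic levels were 11.69, 12.27 and 12.58 and its hypoxic levels 12.08, 11.84 and 11.94, which overlapped, with a change of -0.23 ± 0.28. Without normoxia replicates 1 the L3.6pl change was -1.05 ± 0.24 (adjusted p = 0.0241, limma).

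Other subunits of the peripheral arm varied among themselves in L3.6pl. NDUFS1, which carries several of the iron-sulphur clusters, had a change of -0.32 ± 0.19, and NDUFS3, a core subunit near the ubiquinone site, one of -0.43 ± 0.22. NDUFV1, which binds NADH and the flavin, had the small change of -0.10 ± 0.10, with levels of 10.70, 10.81 and 10.75 in normoxia and 10.73, 10.44 and 10.80 in hypoxia. NDUFA12, an accessory subunit of this arm, had -0.59 ± 0.23, and 2 further accessory subunits, NDUFA6 and NDUFA9, had -0.64 ± 0.24 and -0.62 ± 0.32. NDUFS4 went the other way in both lines. This accessory subunit is one of those mutated in Leigh syndrome. In FG it measured 9.81, 10.15 and 10.34 in normoxia and 10.36, 10.43 and 10.73 in hypoxia, with no overlap and a change of 0.41 ± 0.16 that did not pass (adjusted p = 0.16, limma). Its change in L3.6pl was 0.28 ± 0.16, and NDUFS4 was the only complex I member with a positive value there.

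The NDUFB subunits of the membrane arm, which anchors the complex and pumps protons, had the following values. NDUFB10 in L3.6pl measured 11.51, 11.98 and 12.14 in normoxia and 11.28, 10.71 and 11.38 in hypoxia, without overlap, for a change of -0.75 ± 0.23 (adjusted p = 0.0775, limma). Its change in FG was -0.39 ± 0.23. NDUFB2 had -0.65 ± 0.24 in L3.6pl and -0.26 ± 0.24 in FG. NDUFB9 had -0.48 ± 0.16 in L3.6pl, where its arrays did not overlap, and -0.23 ± 0.16 in FG. NDUFB1, whose probe set has the highest mean of the complex, measured 12.91, 12.98 and 13.13 in L3.6pl normoxia and 12.69, 12.45 and 12.87 in hypoxia. Those arrays did not overlap either, and the change was -0.34 ± 0.13 (adjusted p = 0.166, limma). NDUFB5 and NDUFC1 had among the smaller changes in L3.6pl, at -0.11 ± 0.12 and -0.06 ± 0.21.

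Complex II is the succinate dehydrogenase of the citric acid cycle, in which SDHA holds the flavin that oxidises succinate and SDHC and SDHD anchor the enzyme in the membrane. SDHA in FG measured 10.59, 10.66 and 10.72 in normoxia and 10.23, 10.18 and 10.41 in hypoxia. The hypoxic arrays were all lower, 1.3-fold on average, with a change of -0.38 ± 0.10 (adjusted p = 0.04, limma). Removal of any of 7 arrays, 1 at a time, ended that call, namely FG normoxia 1, 2 or 3, FG hypoxia 1 or 2, L3.6pl hypoxia 2 or L3.6pl normoxia 3, with adjusted p values up to 0.15. In L3.6pl SDHA measured 10.76, 10.98 and 10.81 in normoxia and 10.42, 10.45 and 10.67 in hypoxia, again without overlap. The change there, -0.34 ± 0.10, did not pass (adjusted p = 0.0824, limma), and the difference between the lines was 0.05 ± 0.15.

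SDHC had changes of similar size in the 2 lines, -0.42 ± 0.22 in FG and -0.41 ± 0.22 in L3.6pl. Its FG levels were 9.89, 10.54 and 10.71 in normoxia and 9.78, 9.81 and 10.29 in hypoxia, and the low normoxia replicate 1 overlapped the hypoxic arrays. Without the normoxia replicates 1 SDHC fell in FG by 0.67 ± 0.19 (adjusted p = 0.0493, limma). All 7 of its probe sets had negative changes in both lines. SDHD in FG had levels of 10.80, 10.90 and 11.09 in normoxia and 11.01, 10.92 and 11.13 in hypoxia and a change of 0.09 ± 0.12. In L3.6pl its levels were 10.93, 11.05 and 11.23 in normoxia and 10.92, 10.59 and 10.74 in hypoxia, all hypoxic ones lower, for a change of -0.32 ± 0.12 (adjusted p = 0.157, limma).

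Complex III carries electrons from ubiquinol to cytochrome c, and CYC1 encodes the haem protein that makes the last step. CYC1 in L3.6pl measured 11.30, 11.80 and 12.02 in normoxia and 11.17, 10.60 and 10.81 in hypoxia. The hypoxic arrays were all lower, 1.8-fold on average, with a change of -0.85 ± 0.23 (adjusted p = 0.0483, limma). The call was lost without any of 9 single arrays, with adjusted p values up to 0.184: L3.6pl hypoxia 2 or 3, L3.6pl normoxia 2 or 3, FG normoxia 2 or 3, or any FG hypoxia array. Without normoxia replicates 1 the fall was 1.05 ± 0.16 (adjusted p = 0.00543, limma). In FG the levels were 11.40, 12.04 and 12.07 in normoxia and 11.58, 11.43 and 11.58 in hypoxia, which overlapped through normoxia replicate 1, and the change was -0.31 ± 0.23.

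No other complex III subunit was called. UQCRQ, a small subunit, had a change of -0.50 ± 0.22 in L3.6pl and 0.15 ± 0.22 in FG. The large core subunits UQCRC1 and UQCRC2 had -0.04 ± 0.17 and -0.08 ± 0.10 in FG, and -0.004 ± 0.17 and -0.09 ± 0.10 in L3.6pl. UQCRB, a small subunit known as the ubiquinone-binding protein, had positive values in both lines. In FG it measured 13.02, 13.02 and 13.14 in normoxia and 13.21, 13.29 and 13.44 in hypoxia, with no overlap, and its change of 0.25 ± 0.12 did not pass (adjusted p = 0.232, limma). Of its 4 probe sets, 1 had the opposite sign in each line, with changes of -1.80 in FG and -0.77 in L3.6pl. When the 4 were tested singly, 1 was called in FG and 0 in L3.6pl.

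Complex IV is cytochrome c oxidase, and its nuclear subunits surround the catalytic core encoded in mitochondrial DNA. In FG 7 of its 8 measured members had positive changes, from 0.04 for COX8A to 0.25 for COX7A2, and COX5A alone was negative at -0.20 ± 0.10. COX7B is 1 of the 7, at 0.24 ± 0.23, but the other of its 2 probe sets had a change of -2.26 in FG and was called when tested singly. With the mean of its probe sets COX7B was called lower in both lines. In L3.6pl 7 of 8 were negative. COX8A had the largest of these, with levels of 12.54, 12.91 and 13.06 in normoxia and 12.65, 12.36 and 12.41 in hypoxia and a change of -0.36 ± 0.16 (adjusted p = 0.216, limma). Its arrays overlapped through normoxia replicate 1, and without the normoxia replicates 1 it fell by 0.51 ± 0.13 (adjusted p = 0.0371, limma). COX5A was the only complex IV member whose hypoxic arrays all lay below the normoxic ones, and this held in each line. It measured 12.68, 12.73 and 12.83 in FG normoxia and 12.66, 12.54 and 12.43 in FG hypoxia, then 12.65, 12.68 and 12.62 in L3.6pl normoxia and 12.44, 12.18 and 12.43 in L3.6pl hypoxia. Its changes, -0.20 ± 0.10 and -0.30 ± 0.10, did not pass (adjusted p = 0.254 and 0.103, limma).

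**Figure D3:**
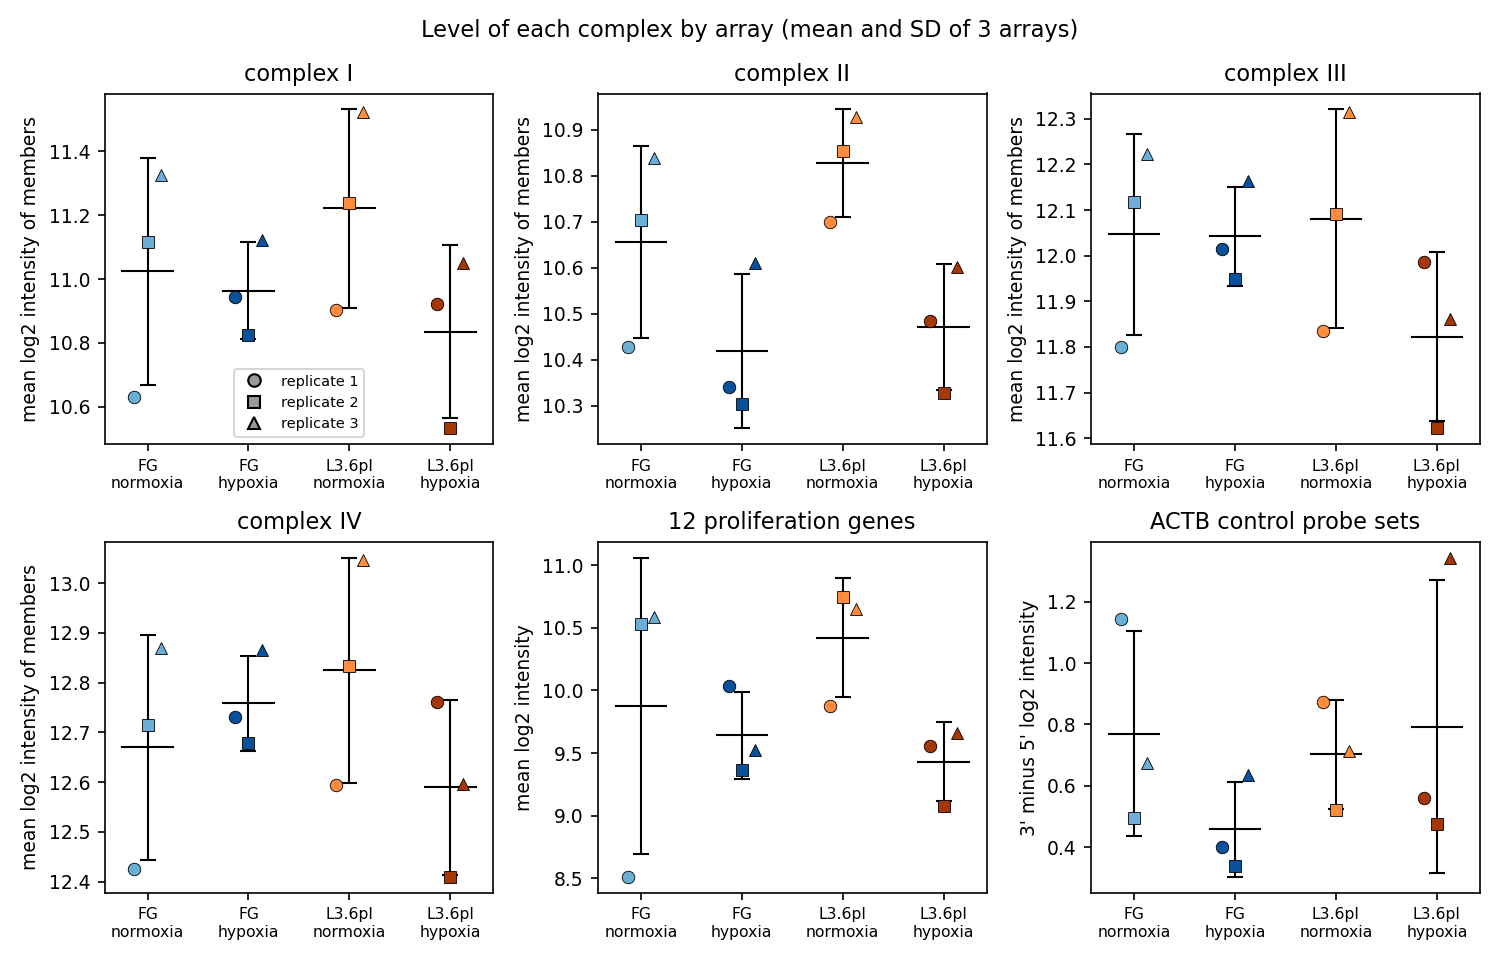
Mean log2 intensity of the measured members of each complex on every array, with the 12 proliferation genes and the 3′ minus 5′ difference of the ACTB control probe sets; horizontal lines are group means, bars 1 SD of 3 arrays, and symbols give the replicate number. Circles (replicate 1) are the lowest normoxic points in every complex panel and in the proliferation panel, and they are the highest normoxic points in the ACTB panel.

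The next comparison set the lines beside each other in normoxia. NDUFA8 and NDUFB5 were higher in L3.6pl and UQCRB was lower, so 3 of 43 members were called where 10.7% of all genes were (5.16% higher and 5.54% lower). The arrays of the lines did not overlap in 6 members that were higher in L3.6pl (15.0% of all genes) and 1 that was lower (13.1% of all genes). The median difference was 0.14, beside 0.02 over all genes, and became -0.05 without FG normoxia replicate 1. NDUFB5, a membrane arm subunit, measured 11.71, 11.59 and 11.75 in FG and 12.34, 12.26 and 12.48 in L3.6pl, a clear gap and a 1.6-fold difference (0.67 ± 0.12, adjusted p = 0.00439, limma). NDUFA8, a subunit on the side of the intermembrane space, measured 10.07, 10.54 and 10.79 in FG and 10.998, 11.43 and 11.77 in L3.6pl. All L3.6pl arrays were higher, 1.91-fold on average (0.93 ± 0.23, adjusted p = 0.0271, limma), but the call was lost without FG normoxia 1 or 2 or L3.6pl normoxia 2 or 3, with adjusted p values up to 0.109. UQCRB measured 13.02, 13.02 and 13.14 in FG and 12.57, 12.49 and 12.86 in L3.6pl, all lower, for a difference of -0.42 ± 0.12 (adjusted p = 0.0451, limma). Its call was lost without any array of FG normoxia, without L3.6pl normoxia 1 or 2, and without FG hypoxia 1 or 2 or L3.6pl hypoxia 1, with adjusted p values up to 0.179.

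In hypoxia NDUFB5 was again higher in L3.6pl and UQCRB again lower, and 2 of 43 members were called where 16.7% of all genes were (10.0% higher and 6.72% lower). The arrays did not overlap in 4 members that were higher (18.2% of all genes) and 8 that were lower (13.9% of all genes). NDUFB5 measured 11.54, 11.48 and 11.79 in FG and 12.22, 12.09 and 12.43 in L3.6pl, without overlap (0.64 ± 0.12, adjusted p = 0.00399, limma). UQCRB measured 13.21, 13.29 and 13.44 in FG and 12.88, 12.63 and 12.85 in L3.6pl, again apart (-0.53 ± 0.12, adjusted p = 0.0115, limma). Both calls held without any single array, and all 4 probe sets of UQCRB had negative differences between the lines in both oxygen conditions. The median difference of the members had the sign opposite to normoxia, -0.16 beside 0.02 over all genes, with 33 of 43 negative. Members with the smallest adjusted p that did not pass were NDUFA1 (-0.58 ± 0.19, 0.0639, limma), CYC1 (-0.67 ± 0.23, 0.0669) and COX6C (-0.41 ± 0.14, 0.0771) among the lower ones, and NDUFV1 (0.30 ± 0.10, 0.065) and NDUFA8 (0.64 ± 0.23, 0.0924) among the higher ones.

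The replicate numbers tied the lines together within each oxygen condition. After removal of the group means, arrays of the same number in FG and L3.6pl correlated at 0.528 to 0.735 in normoxia and 0.358 to 0.462 in hypoxia, across genes, which are not independent replicates. With each such pair as a block, a choice made after the data were seen, 9 members were called in normoxia against 23.1% of all genes. NDUFA8, NDUFA12, NDUFB5, NDUFB6, NDUFB8, UQCRQ, COX7B and COX7C were higher in L3.6pl and UQCRB was lower. In hypoxia 16 were called against 30.0% of all genes, with NDUFA8, NDUFB5, NDUFB8 and NDUFV1 higher. The 12 lower ones were NDUFA1, NDUFA2, NDUFA5, NDUFA6, NDUFA9, NDUFB2, NDUFB3, NDUFS6, UQCRB, CYC1, COX5B and COX6C.

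**Figure D4:**
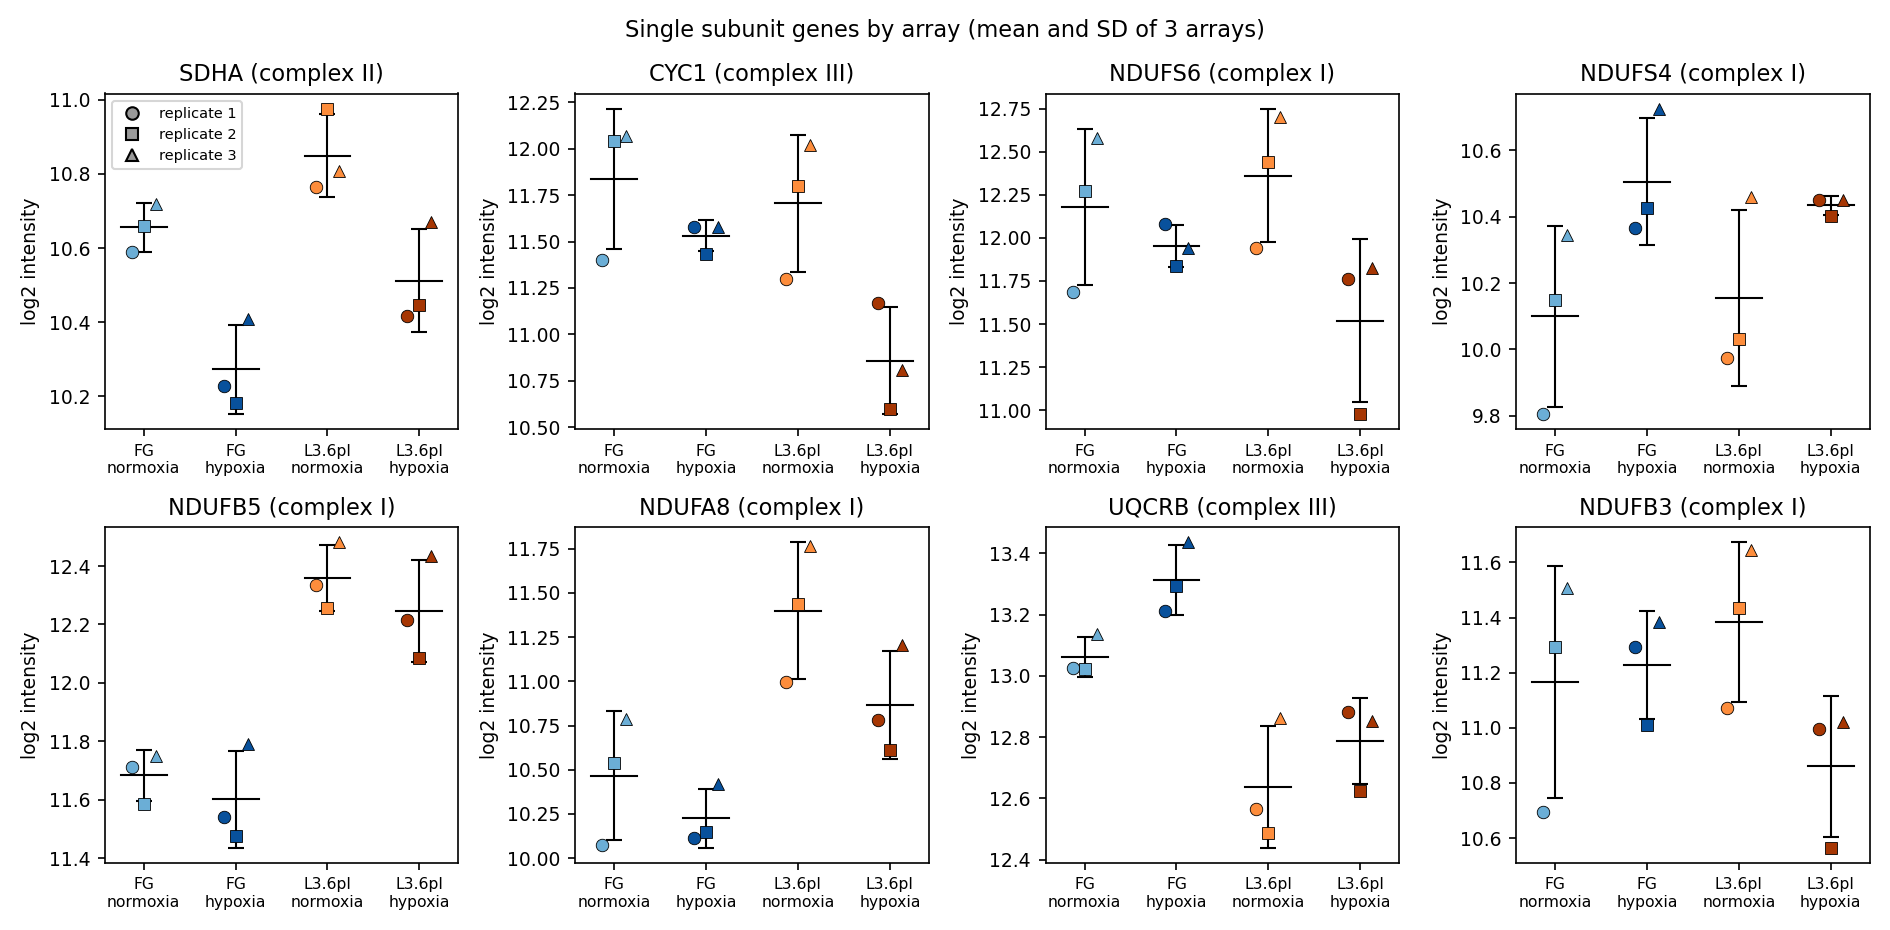
Log2 intensity of 8 subunit genes on every array of the 4 groups, with group means (lines), 1 SD of 3 arrays (bars) and replicate numbers (symbols). NDUFB5 and NDUFA8 are higher and UQCRB lower in both L3.6pl groups than in the FG groups, while CYC1, NDUFS6 and NDUFB3 have their lowest array in L3.6pl hypoxia replicate 2.

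Whether hypoxia acted differently on subunit transcripts in the 2 lines was tested as the interaction, the hypoxia change in L3.6pl minus that in FG. The limma test called 0 members, where it called 0.0253% of all genes (0.0152% higher and 0.0101% lower). Of the members only SDHD had an unadjusted p below 0.05, where 7.22% of all genes did (-0.41 ± 0.17, adjusted p = 0.641, limma). With array weights, without the normoxia replicates 1, and without these and L3.6pl hypoxia replicate 3, the count was again 0. The value was negative in 38 of 43 members, with a median of -0.35 beside 0.01 over all genes. It ran from -0.65 for UQCRQ to 0.06 for NDUFV1, and the median stayed between -0.50 and -0.15 without any single array. Complex IV had negative values in 8 of 8 members, complex I in 25 of 27, complex III in 4 of 5 and complex II in 1 of 3. These counts rest on 1 probe set per gene. Of the 25 members with more than 1 probe set, 13 had the same interaction sign in all of theirs. In COX7B the probe sets ran from -0.53 to 0.49, and in NDUFC1 from -0.37 to 0.53.

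With the same-number pairs as a block, NDUFB3 differed between the lines in its hypoxia change, so 1 of 43 members was called against 3.55% of all genes. An unadjusted p below 0.05 was found in 23 members, all negative, where 18.0% of all genes had one and 6.68% had one with a negative value. NDUFB3, a membrane arm subunit of complex I, had L3.6pl minus FG differences of 0.38, 0.14 and 0.14 on normoxia pairs 1 to 3 and of -0.30, -0.44 and -0.36 on the hypoxia pairs, for an interaction of -0.59 ± 0.13 (adjusted p = 0.0451, limma with the block). Without the block its adjusted p was 0.776. Next in order were UQCRQ (-0.65 ± 0.14, adjusted p = 0.0512) and NDUFA12 (-0.61 ± 0.14, adjusted p = 0.0513), which did not pass.

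The difference between the lines, taken within each same-number pair, lay lower on all 3 hypoxia pairs than on all 3 normoxia pairs in 27 of 43 members (62.8%), against 9.32% of all genes. The opposite order was found in 0 members, against 14.1% of all genes. By complex the lower order held in 17 of 27 members of complex I, 1 of 3 of complex II, 2 of 5 of complex III and 7 of 8 of complex IV. It also held in 27 members when normoxia pair 1 was left out, against 14.4% of all genes. The median over the members was 0.16, 0.10 and 0.12 on normoxia pairs 1 to 3 and -0.05, -0.28 and -0.14 on hypoxia pairs 1 to 3. Members of 1 list that vary together across arrays are not independent of each other, so the count describes these pairs and carries no p.

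**Figure D5:**
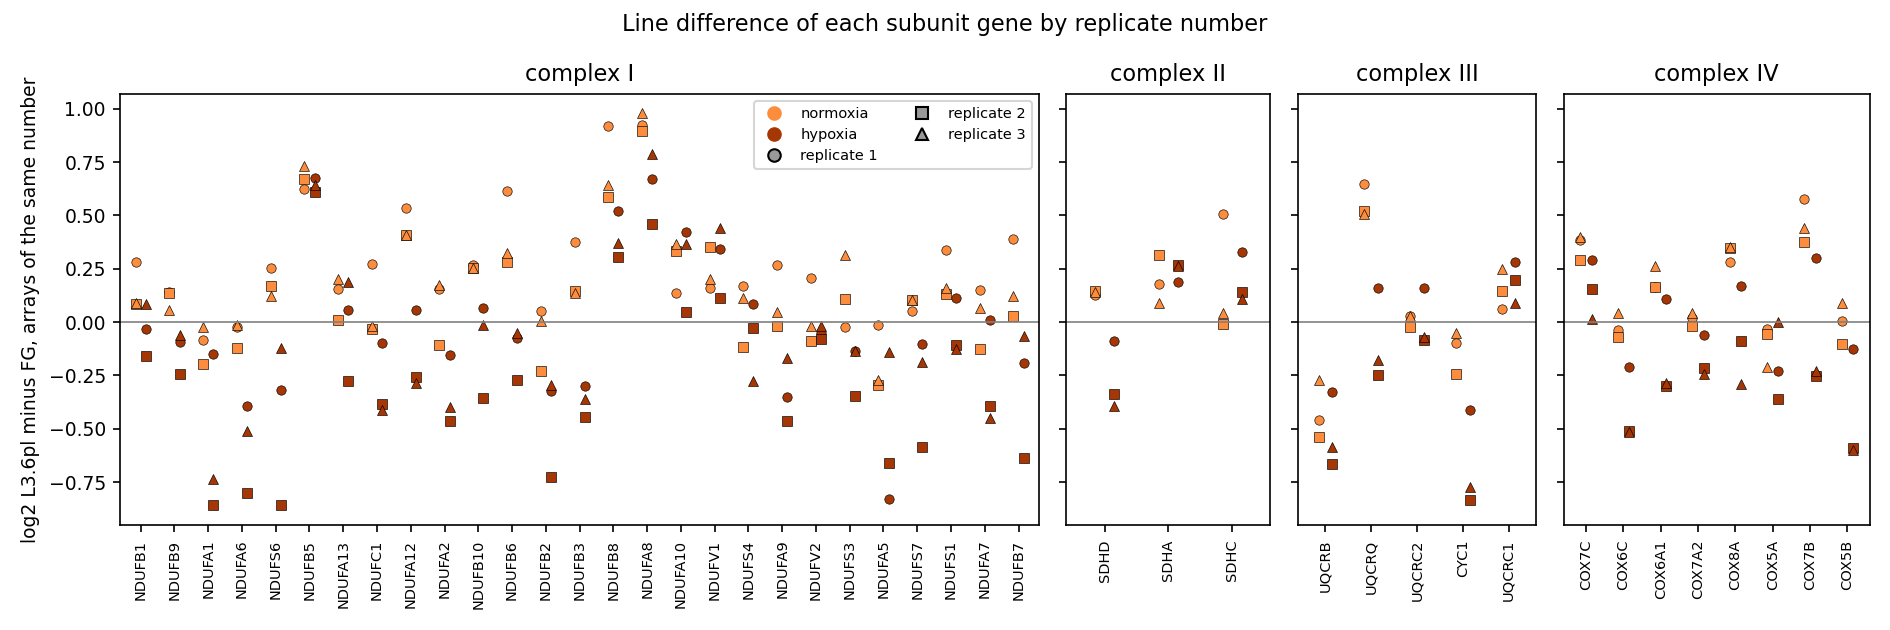
L3.6pl minus FG for each subunit gene, as the log2 difference between arrays of the same oxygen condition and replicate number (light points normoxia, dark points hypoxia, symbols the replicate number). The 3 dark points lie below the 3 light points in 27 of 43 genes, among them NDUFB3, NDUFA12, UQCRQ, CYC1 and 7 of the 8 complex IV genes.

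Genes that supply or support the chain were taken from lists of the same pathway. Of 11 further subunits measured outside the 49, 0 were called in hypoxia in either line. Without the normoxia replicates 1 that count stayed 0 in FG, against 11.6% of all genes. In L3.6pl 3 were then called lower (NDUFAB1, UQCR10 and COXFA4), against 5.65% of all genes. Of 7 tissue or hypoxia isoforms COXFA4L2 was called in both lines. COXFA4L2, a hypoxia-induced relative of a complex IV subunit, measured 6.26, 6.70 and 6.21 in FG normoxia and 7.95, 8.09 and 8.81 in hypoxia. It rose by 1.89 ± 0.43 there (adjusted p = 0.0176, limma), a call lost without FG hypoxia 2 or 3 or FG normoxia 3, with adjusted p values up to 0.0599. In L3.6pl it rose by 3.86 ± 0.43 (adjusted p = 0.000855, limma), and the difference between the 2 hypoxia changes did not pass (1.97 ± 0.60, adjusted p = 0.396). In hypoxia COXFA4L2 was called higher in L3.6pl than in FG (1.76 ± 0.43, adjusted p = 0.0165, limma). That call was lost without any of 3 single arrays, with adjusted p values up to 0.0666. In normoxia the line difference was -0.20 ± 0.43 and was not called. COX4I2, the isoform of a complex IV subunit known for its induction in hypoxia in some tissues, had -0.28 ± 0.11 in FG and -0.15 ± 0.11 in L3.6pl and was not called. Its levels on the 12 arrays ran from 5.78 to 6.35, near the median of all gene means (6.30), and whether its transcript was present was not tested.

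Among 45 assembly factors 6 fell in FG and 5 in L3.6pl, where 6.47% and 2.97% of all genes were called lower, and 0 rose in either. Without the normoxia replicates 1 the counts were 9 and 13 lower and again 0 higher. In that setting 11.6% of all genes were called in either direction in FG, and 5.65% were called lower in L3.6pl. LYRM7, which matures the iron-sulphur subunit of complex III, fell in both lines, with changes of -1.95 ± 0.25 in FG and -1.93 ± 0.25 in L3.6pl (adjusted p = 0.00114 and 0.0018, limma). COX18, which inserts a core subunit of complex IV into the membrane, fell in both as well, with -1.47 ± 0.20 and -1.24 ± 0.20 (adjusted p = 0.00125 and 0.00457, limma). COA7, another complex IV assembly factor, fell in both, with -0.91 ± 0.18 and -0.98 ± 0.18 (adjusted p = 0.00912 and 0.00889, limma). These 6 calls held without any single array. Between the lines, the complex I assembly factor TIMMDC1 was higher in L3.6pl by 0.99 ± 0.23 in normoxia and 1.14 ± 0.23 in hypoxia, and TMEM126B, also of complex I assembly, was lower, with differences of -0.70 ± 0.16 and -1.09 ± 0.16. The normoxia calls of both were each lost without 4 single arrays of the normoxia groups, with adjusted p values up to 0.078 and 0.0663: replicates 2 and 3 of L3.6pl and 1 and 2 of FG for TIMMDC1, and replicates 1 and 2 of L3.6pl and 2 and 3 of FG for TMEM126B.

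Of 18 ATP synthase genes, ATP5F1A, the alpha subunit of its catalytic head, fell in both lines, with changes of -0.44 ± 0.10 in FG and -0.51 ± 0.10 in L3.6pl (adjusted p = 0.0217 and 0.0153, limma). ATP5F1B, the beta subunit, fell by 0.51 ± 0.12 in L3.6pl (adjusted p = 0.0271, limma). Each of these 3 calls was lost without replicate 1 or 2 of the line's hypoxia arrays or replicate 2 or 3 of its normoxia arrays, with adjusted p values up to 0.119. Without the normoxia replicates 1, 2 ATP synthase genes were called lower in FG and 5 in L3.6pl. Of all genes, 6.47% in FG and 2.97% in L3.6pl were called lower with all arrays. Without those replicates 11.6% were called in either direction in FG, and 5.65% were called lower in L3.6pl. Of 15 genes of cytochrome c and ubiquinone synthesis, 1 rose and 3 fell in FG, and 0 rose and 2 fell in L3.6pl. Without the normoxia replicates 1 these counts were 1 and 2 in FG and 0 and 5 in L3.6pl, beside the same shares of all genes. COQ10B rose by 0.91 ± 0.15 in FG (adjusted p = 0.00382, limma). PDSS1, which makes the side chain of ubiquinone, fell by 1.43 ± 0.41 in FG and 1.73 ± 0.41 in L3.6pl (adjusted p = 0.0485 and 0.0295, limma). COQ9 was also called lower in both, with -0.55 ± 0.13 and -0.51 ± 0.13 (adjusted p = 0.0235 and 0.0434, limma). Its calls were lost without any of 4 single arrays in FG and 7 in L3.6pl. The L3.6pl call of PDSS1 was lost without L3.6pl hypoxia 1 or 2 or L3.6pl normoxia 2 or 3, with adjusted p values up to 0.123. CYCS, cytochrome c itself, had -0.36 ± 0.25 and -0.89 ± 0.25 and was not called.

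Of 12 regulators of mitochondrial biogenesis, the coactivator PPARGC1A fell in FG and its relative PPARGC1B fell in L3.6pl. PPARGC1A measured 8.07, 6.68 and 6.73 in FG normoxia and 5.15, 5.69 and 6.07 in hypoxia, without overlap, a fall of 1.52 ± 0.38 (adjusted p = 0.0279, limma). Its call was lost without FG hypoxia 1 or 2, with adjusted p values up to 0.103, and without both normoxia replicates 1 the change was -1.07 (adjusted p = 0.0537). PPARGC1B measured 7.86, 8.14 and 8.10 in L3.6pl normoxia and 6.69, 6.23 and 6.75 in hypoxia, a fall of 1.48 ± 0.21 (adjusted p = 0.00289, limma) that held without any single array. In normoxia PPARGC1A was lower in L3.6pl than in FG (-2.30 ± 0.38) and PPARGC1B higher by 1.45 ± 0.21 (adjusted p = 0.00293 and 0.00156, limma). YY1 rose in FG by 0.49 ± 0.13 (adjusted p = 0.034, limma), a call lost without FG hypoxia 1 or 2, any FG normoxia array or L3.6pl normoxia 2, with adjusted p values up to 0.113, and without both normoxia replicates 1 (adjusted p = 0.0799). NRF1 had -0.35 ± 0.20 in FG and -0.03 ± 0.20 in L3.6pl, and TFAM, which maintains and transcribes mitochondrial DNA, had -0.57 ± 0.25 and -0.63 ± 0.25. Neither was called, though without the normoxia replicates 1 TFAM fell in L3.6pl by 0.82 (adjusted p = 0.0427, limma).

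Hypoxia genes that act on respiration were listed as 8, of which 4 rose in each line and 0 fell. Without the normoxia replicates 1, ISCU was called lower in both lines and LONP1 higher in L3.6pl, for 4 higher and 1 lower in FG and 5 higher and 1 lower in L3.6pl. PDK1, the kinase that blocks pyruvate dehydrogenase, rose by 2.57 ± 0.37 in FG and 2.11 ± 0.37 in L3.6pl. BNIP3 and BNIP3L, receptors for the removal of mitochondria, rose by 2.34 ± 0.31 and 1.84 ± 0.19 in FG and by 2.63 ± 0.31 and 1.56 ± 0.19 in L3.6pl, and the fourth was COXFA4L2. These calls, apart from that of COXFA4L2 in FG, held without any single array. LONP1, a mitochondrial protease, had 0.35 ± 0.18 and 0.64 ± 0.18 (adjusted p = 0.278 and 0.0577, limma). HIGD1A had -0.33 ± 0.31 and -0.64 ± 0.31 and the iron-sulphur scaffold gene ISCU -0.66 ± 0.21 and -0.65 ± 0.21, none of them called with all arrays.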

How the data were processed

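The deposited values are normalized intensities of 54675 probe sets per array, made by the authors with RMA, per the submitters' processing notes, which give no version. No source states how RMA's log2 output became linear values. These deposited intensities were put back on the log2 scale with no further normalization. Names came from GEO's platform annotation, updated through a gene table of GRCh38.p14: 41091 gave exactly 1 gene, 1801 several and 11721 none. Of the measured members, 25 have more than 1 probe set, and in each hypoxia comparison all probe sets of 15 of these had the same sign. For the interaction this held in 13. Probe sets with names ending in x_at represent 3 members, SDHA and SDHC among them, and those ending in s_at represent 19. Whether such probe sets also detect other transcripts was not tested.

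Group means were fitted with limma 3.58.1 in R 4.3.3 (lmFit, contrasts, eBayes; 8 residual and 2.72 prior degrees of freedom), with Benjamini-Hochberg adjustment over 19775 genes and a call below 0.05. An exact test of 3 arrays against 3 cannot go below a two-sided p of 0.1. The number of arrays limits the precision. The pipeline was tested on simulated data. Replicate numbers paired the lines within an oxygen condition (all 3 correlations above 0.1 in both), while between hypoxia and normoxia 1 of 3 was above 0.1 in each line. The members, gene lists, motifs and rules were chosen with earlier results of these data known. Genes named from the lists are the called ones with the smallest adjusted p in a comparison and a set always named. The pair differences and the array values of NDUFS4, NDUFB3 and NDUFB10 were chosen for description after they were seen. Alternatives were other normalizations, filters, probe set rules, moderation, weights, blocks and left-out arrays.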

Additional observations from a re-analysis of the deposited data

Results flagged for a closer look

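NDUFB3, a membrane arm subunit of complex I, differed between the lines in its hypoxia change when arrays of the same oxygen condition and replicate number were paired. The change in L3.6pl minus that in FG was -0.59 (adjusted p = 0.0451 over all genes, limma with the block), and the L3.6pl minus FG difference was positive on 3 of 3 normoxia pairs and negative on 3 of 3 hypoxia pairs. The same value without the pairing had an adjusted p of 0.776. The pairing was chosen after the data were seen.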

How the results depend on the processing

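In FG hypoxia, where 1 member was called, the count was 0 with arrays centred on their medians, with a filter on dim genes, with an intensity trend and robust moderation, with only the compared groups fitted and at an adjusted p below 0.01. With probe sets averaged it was 4, of which NDUFA10 was higher and SDHA, SDHC and COX7B were lower. The count was 7 with array weights, 2 with the replicate block and 4 without the normoxia replicates 1 and L3.6pl hypoxia replicate 3. In L3.6pl hypoxia, also with 1 called, it was 0 with centring, with only the compared groups and below 0.01, 2 with cyclic loess, 2 with the mean of probe sets, 22 with weights, 4 with the replicate block, 15 without the normoxia replicates 1 and 23 without these and L3.6pl hypoxia replicate 3. Between the lines in normoxia, with 3 called, it was 5 with the mean of probe sets, 12 with weights, 5 with the replicate block, 1 with only the compared groups, 1 below 0.01 and 9 with the block within oxygen. In hypoxia, with 2 called, it was 5 with cyclic loess, 4 with the mean of probe sets, 5 with weights, 5 with the replicate block, 1 below 0.01, 6 without the normoxia replicates 1, 6 without these and L3.6pl hypoxia replicate 3, and 16 with the block within oxygen. For the interaction, 0 became 1 with the block within oxygen. The share of all genes called also differed by setting. In L3.6pl hypoxia it was 6.86% as reported and 10.9% without the normoxia replicates 1. It was 21.1% without these and L3.6pl hypoxia replicate 3, and 26.3% with weights. With the block within oxygen it was 23.1% between the lines in normoxia, 30.0% in hypoxia and 3.55% for the interaction. Shares for the other settings are not given here, so those counts describe the members alone. The cause of these shifts was not tested.

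Without each array in turn the counts ran from 0 to 1 in FG, 0 to 3 in L3.6pl, 1 to 3 between the lines in normoxia, 2 to 4 in hypoxia, and 0 for the interaction. The matching medians ran from -0.22 to 0.08, -0.46 to -0.21, -0.05 to 0.28, -0.24 to -0.03 and -0.50 to -0.15. Between hypoxia and normoxia, 1 of 3 same-number correlations was above 0.1 in each line, that of replicate 3 (0.259 in FG and 0.413 in L3.6pl). The labels do not say what the number marks, and whether these arrays were handled together was not tested. The replicate block called NDUFS4 higher and SDHA lower in FG, and NDUFA8, NDUFB2, NDUFB10 and CYC1 lower in L3.6pl.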
